A study of Homo sapiens with 4 samples.

Results

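The aminoacyl-tRNA synthetase genes were followed by RNA-seq in LNCaP, a human prostate cancer line that responds to androgen. The genes were chosen by name and not by their values: 19 that encode cytosolic synthetases (symbols ending in 1, FARSA and FARSB) and 16 that encode mitochondrial synthetases (symbols ending in 2), matched by Entrez Gene identifier. The files listed 19801 genes, among them all 35 of these synthetases, and all 35 had RPKM 1 or more in some library, as did 14626 genes of the series. RPKM is a read count corrected for gene length and for library size, so levels can be compared between genes per length. The aspartyl enzymes of both compartments were not analysed here.

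Every culture was transfected for 24 h with a plasmid, either the empty vector or AR1-651, a truncated receptor construct that lacks the ligand-binding domain and is active without hormone. For the next 12 h each was left without drug or given AIL (ailanthone), a plant-derived small molecule. The 4 conditions have 1 library each: empty vector, AR1-651, and each of them with AIL added (empty vector + AIL and AR1-651 + AIL). No difference between conditions therefore has a replicate check, no p-value or SD is given, and the sequencing depth is unknown. A change is the difference of log2(RPKM + 1), which understates changes of genes with low RPKM, and raised or lowered is written only of changes that reached 2-fold on that scale. In bulk RNA, fewer cells of a kind and less RNA per cell cannot be told apart.

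Of the LNCaP markers, KLK3, KLK2, FOLH1, TMPRSS2, HOXB13, KRT8 and KRT18 were present in all 4 libraries, whereas PTPRC, KRT14, PECAM1 and CHGA, markers of leukocytes, basal epithelium, endothelium and neuroendocrine cells, stayed at or below 0.94 RPKM. COL1A1, a fibroblast gene, lay between 1.75 and 4.59 RPKM. The androgen-induced genes KLK2 and TMPRSS2 were at 197.5 and 276 RPKM with AR1-651, against 14.3 and 36.7 with empty vector.

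Each synthetase joins 1 amino acid to its transfer RNA, the step that sets the genetic code at the level of protein synthesis. The cytosolic and mitochondrial enzymes are almost all made from separate nuclear genes. GARS1 and KARS1 serve both compartments, EPRS1 charges both glutamate and proline, and QARS1 has no mitochondrial partner, since mitochondria make glutaminyl-tRNA by an indirect route. Several cytosolic enzymes sit in the multisynthetase complex, held together by AIMP1, AIMP2 and EEF1E1. Many cytosolic synthetase genes are known targets of ATF4, the transcription factor that carries the integrated stress response and acts through the C/EBP-ATF response element.

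The core of that element is shown first, because the changes with AIL are given separately for the genes that carry it. Promoter sequences from RefSeq on GRCh38.p14, from 250 bases before to 50 bases after the start, matched 30 of the 35 members. LARS1, VARS1, YARS1, AARS2 and VARS2 had no entry. The core of the element was searched on both strands as TGATGNAA, which reads TTNCATCA on the other strand, and it was held by 8 of the 30 members (26.7%) and by 4.46% of 27305 genes. The 8 were AARS1, CARS1, GARS1, IARS1, MARS1, NARS1, TARS1 and YARS2, which makes 7 of the 16 cytosolic genes with an entry. A match describes the letters and is not evidence of a bound site. The 4 holders that were lower with AIL in both backgrounds and the 1 holder that AIL raised are printed 5′ to 3′ on the strand of the gene, with the core in capitals.
AARS1 (chr16:70289666-70289733, minus strand): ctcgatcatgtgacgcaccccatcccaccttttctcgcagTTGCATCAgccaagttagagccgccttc
GARS1 (chr7:30594805-30594872, plus strand): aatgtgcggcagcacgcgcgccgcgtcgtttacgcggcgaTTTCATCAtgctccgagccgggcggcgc
IARS1 (chr9:92293683-92293750, minus strand): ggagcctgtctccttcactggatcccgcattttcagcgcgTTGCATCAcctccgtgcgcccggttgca
MARS1 (chr12:57488024-57488091, plus strand): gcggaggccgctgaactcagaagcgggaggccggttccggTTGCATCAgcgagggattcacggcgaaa
YARS2 (chr12:32756067-32756134, minus strand): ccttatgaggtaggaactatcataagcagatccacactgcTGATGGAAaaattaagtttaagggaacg
The match reads TTGCATCA in AARS1, IARS1 and MARS1 and TTTCATCA in GARS1. The match began at -33 in GARS1, -13 in IARS1 and -4 in MARS1, counted from the start of transcription, and at -187 in AARS1 and -197 in YARS2. In YARS2 it stands in the opposite orientation to that of the other 4 printed. Of the holders not printed, TARS1 and CARS1 also read TTGCATCA, at 3 and -2. NARS1 reads TGATGCAA at 15, in the same orientation as YARS2. With AIL, TARS1 was higher in both backgrounds, and CARS1 and NARS1 had opposite signs in the 2 backgrounds. The letters and the orientation thus did not separate the holders by direction of change.

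The cytosolic synthetases were among the more abundant messages of these cells. Their mean RPKM over the 4 libraries lay between the 65.5th and the 97.2nd percentile of the genes kept, with a median at the 86.7th, and the mitochondrial ones lay between the 32.7th and the 86.6th. FARSA, the catalytic subunit of phenylalanyl-tRNA synthetase, had the highest mean of the cytosolic genes and IARS1, the isoleucyl enzyme, the lowest. TARS2, the mitochondrial threonyl enzyme, and PARS2, the mitochondrial prolyl enzyme, were the highest and lowest of the mitochondrial genes. The median RPKM of the 19 cytosolic genes was 55.3 in the empty vector library and 47.3 once AIL was added, and 44.7 in the AR1-651 library and 54.6 once AIL was added. For the 16 mitochondrial genes it was 13.8, 16.3, 14.9 and 17.7 in that order, so neither list as a whole was shifted by as much as 2-fold.

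**Figure D1:**
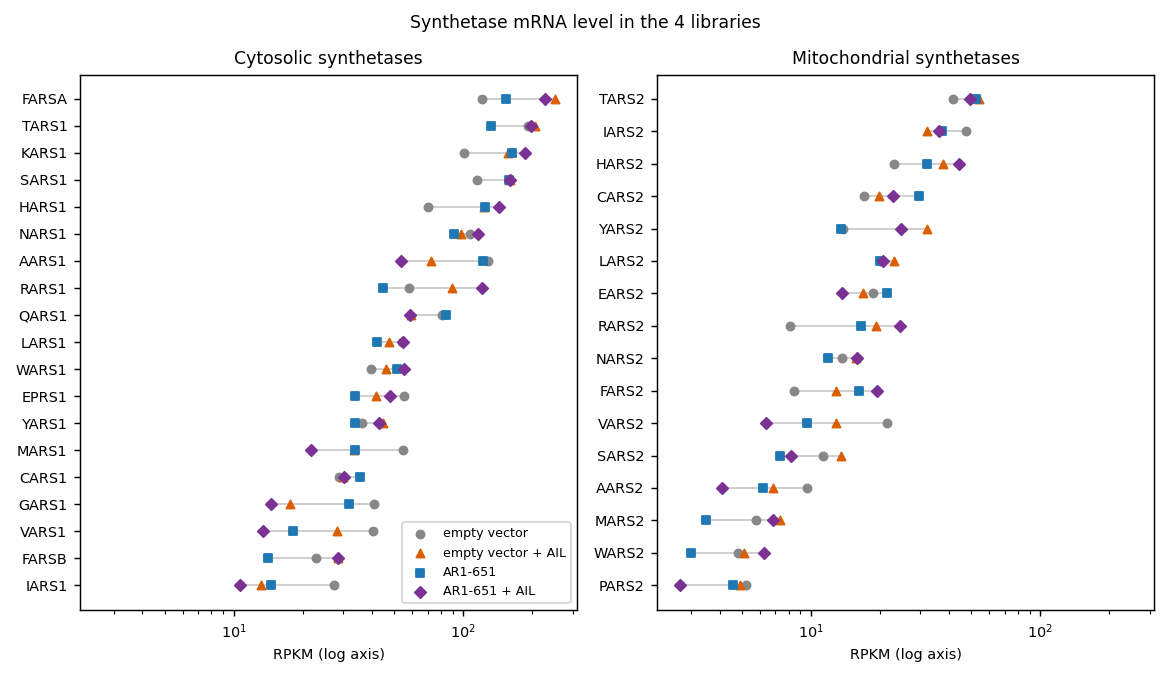
RPKM (log axis) of the 19 cytosolic (left) and 16 mitochondrial (right) synthetases in the 4 libraries, ordered by their mean, each symbol 1 library and each grey line the range over libraries. The cytosolic genes lie between 10.62 and 250.2 RPKM, and the mitochondrial genes between 2.69 and 53.97 RPKM.

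Where both compartments have an enzyme for the same amino acid, the cytosolic gene was usually the higher one. Of 17 such pairs (EPRS1 set against both EARS2 and PARS2, and both subunits of the cytosolic phenylalanyl enzyme against FARS2), the cytosolic member was higher in every library in 15. The widest ratio was that of the seryl enzymes, SARS1 over SARS2, at 21.7 with AR1-651. Isoleucine was reversed in all 4 libraries. The RPKM ratio of IARS1 to IARS2 was 0.57 with empty vector, 0.41 with AIL alone, 0.39 with AR1-651 alone and 0.29 with both. The other exception was FARSB, the second subunit of the cytosolic phenylalanyl enzyme, which stood at 0.87 of FARS2 with AR1-651 and at 1.46 to 2.70 of it elsewhere. The 2 subunits of that enzyme assemble in equal number, yet their RPKM ratio, FARSA over FARSB, was 5.27 without and 8.78 with AIL in empty vector cells, and 10.9 without and 7.99 with AIL in AR1-651 cells.

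AIL in empty vector cells raised FARSA, YARS2 and RARS2 and lowered GARS1. These were 3 raised and 1 lowered of 35 members, where 9.53% of all genes were raised and 9.03% lowered. The remaining 31 stayed within 2-fold. FARSA went from 121 to 250.2 RPKM (log2 change 1.05). YARS2 and RARS2, the mitochondrial tyrosyl and arginyl enzymes, went from 13.8 to 32.0 RPKM (1.15) and from 8.11 to 19.1 RPKM (1.14). The value of RARS2 was 0.90 after adjustment for the length and GC content of the transcript, inside the threshold. GARS1, the glycyl enzyme of both compartments, went from 40.7 to 17.7 RPKM (-1.16), and IARS1 was just inside the threshold, at 27.3 and 13.2 RPKM (-0.99). The median change was 0.06 for the cytosolic and 0.20 for the mitochondrial genes, against -0.02 for all genes.

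In AR1-651 cells, AIL raised 1 member, RARS1, and lowered 2, AARS1 and GARS1, where 14.9% of all genes were raised and 5.74% lowered. RARS1, the cytosolic arginyl enzyme, went from 44.7 to 121 RPKM (log2 change 1.41). AARS1, the alanyl enzyme, went from 123 to 53.75 RPKM (-1.17) and GARS1 from 31.8 to 14.5 RPKM (-1.08). FARSA, YARS2 and RARS2, all raised in empty vector cells, were higher by 0.57, 0.82 and 0.54. The median change was 0.19 for the cytosolic and 0.09 for the mitochondrial genes, against 0.13 for all genes. Scaling the libraries by the median ratio over genes moved the all-gene median to -0.03 here, the cytosolic one to -0.03 and the mitochondrial one to -0.11, and from -0.30 to -0.08 for AR1-651 without AIL, so small differences in these comparisons are read relative to those medians.

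The comparisons of AIL in empty vector cells and in AR1-651 cells share no library, so directions can be set side by side. Of the 35 members, 18 (51.4%) were higher with AIL in both backgrounds, 11 (31.4%) were lower in both, and 6 went in opposite directions. Among all genes, 38% were higher in both and 32.2% lower in both. The 11 lower ones were the cytosolic AARS1, GARS1, IARS1, MARS1, QARS1 and VARS1 and the mitochondrial AARS2, EARS2, IARS2, PARS2 and VARS2. All 11 remained lower in both backgrounds after an adjustment for transcript length and GC content. It takes out, over all genes, how each change follows them. Median-ratio scaling divides the AIL library by the larger factor (1.062 against 1.055 in empty vector cells, 1.021 against 0.876 in AR1-651 cells). A gene lower with AIL therefore stays lower under the scaling, so the 11 remained by construction. Of the 18 higher ones, 12 remained with the scaling and 11 after the adjustment. Across the 35 genes the changes in the 2 backgrounds had a Spearman rho of 0.67, against 0.59 across all genes, a description across genes, which are not independent replicates.

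GARS1 was the only member at least 2-fold changed with AIL in both backgrounds, where 5.68% of all genes were raised in both and 2.93% lowered in both. Its libraries with AIL (17.7 and 14.5 RPKM) lay below both libraries without it (40.7 and 31.8 RPKM). AARS1 showed the same separation, with 72.35 and 53.75 RPKM with AIL against 128 and 123 RPKM without. Its change in empty vector cells, -0.81, did not reach 2-fold. IARS1 was at 13.2 and 10.6 RPKM with AIL and at 27.3 and 14.5 RPKM without, so the AR1-651 library lay close to both AIL libraries. In MARS1, the methionyl enzyme, the libraries stood at 54.9 RPKM with empty vector, 33.3 with AIL, 33.8 with AR1-651 and 21.7 with both.

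In the opposite direction, YARS2 stood at 32.0 and 24.7 RPKM with AIL and at 13.8 and 13.5 RPKM without. FARSA stood at 250.2 and 227 RPKM with AIL against 121 and 153 RPKM without, and RARS1 at 88.9 and 121 RPKM against 58.1 and 44.7 RPKM. RARS2 was at 8.11 RPKM with empty vector, 19.1 when AIL was added, 16.5 with AR1-651 and 24.4 with both, so the empty vector library alone stood low. For these 4 genes the libraries with and without AIL did not overlap. Over all members, both AIL libraries lay above both others for 13 and below both for 7, where 29.1% and 20.6% of all genes did. After the adjustment, the change of RARS1 with AIL in AR1-651 cells was 0.81 in place of 1.41, that of RARS2 was -0.01 in place of 0.54, and those of GARS1 were -1.24 and -1.26.

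**Figure D2:**
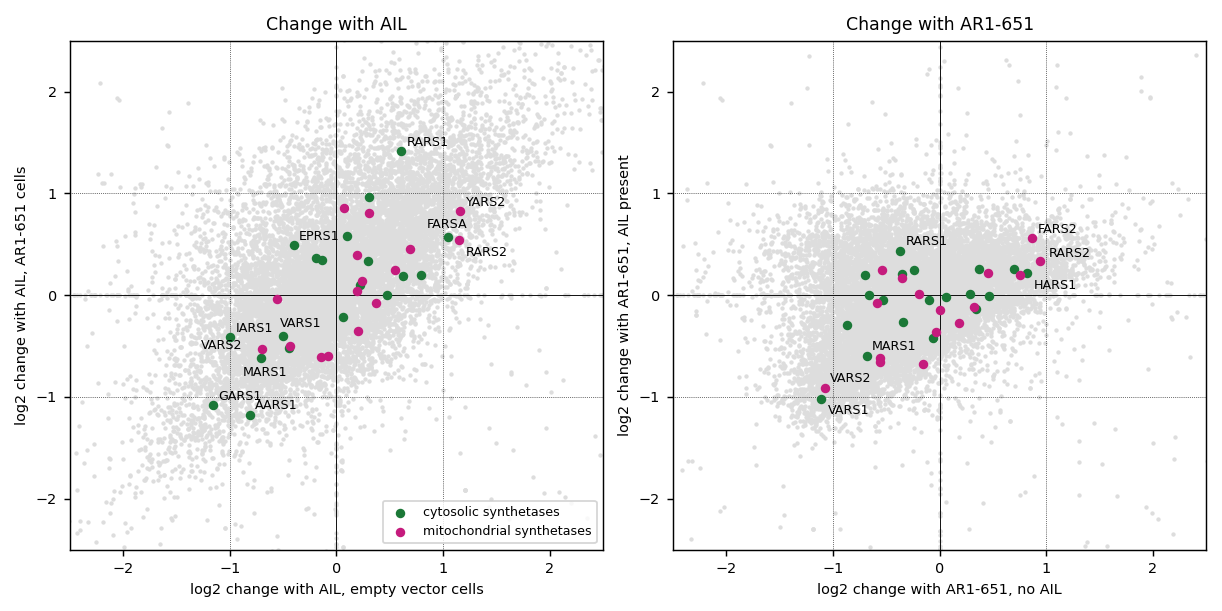
Left, log2 change with AIL in empty vector cells (x axis) against that in AR1-651 cells (y axis). Right, log2 change with AR1-651 without AIL (x axis) against that with AIL present (y axis). Grey points are all genes kept within the axes, coloured points the synthetases, and dotted lines mark 2-fold. GARS1 lies past 2-fold on both axes at the left, and VARS1 on both axes at the right.

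The methionyl enzymes differed in sign with AIL in AR1-651 cells: MARS1 was lower by 0.62 and MARS2, the mitochondrial one, higher by 0.81 (3.48 to 6.85 RPKM). Their RPKM ratio, MARS1 over MARS2, was 9.57 and 9.71 in the libraries without AIL and 4.56 and 3.17 in those with it. Most pairs had changes of the same sign, 14 of 17 in empty vector cells and 13 of 17 in AR1-651 cells. In RPKM as deposited EPRS1 had the widest gap between backgrounds, at 55.3 and 41.6 RPKM without and with AIL in empty vector cells (-0.40) and at 33.7 and 47.9 RPKM in AR1-651 cells (0.49). After the adjustment its values were -0.33 and 0.05, and the gap was wider in RARS2, with 0.90 and -0.01. The gap of 0.89 was not tested, as it rests on 1 library per condition.

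ATF4 was measured in the same libraries, and its message rose with AIL from 171 to 703 RPKM in empty vector cells (2.03) and from 272 to 727 RPKM in AR1-651 cells (1.42). ATF3, another stress-induced transcription factor, rose from 7.08 to 145 RPKM (4.17) and from 13.8 to 159.5 RPKM (3.44). Of 15 genes listed for the integrated stress response, ATF4, ATF3, SESN2 and PPP1R15A rose at least 2-fold in both backgrounds. SESN2 restrains growth signalling and PPP1R15A directs the phosphatase that ends the stress signal. CHAC1, SLC7A11 and DDIT4 fell at least 2-fold in both. Among all genes 5.68% were raised in both backgrounds and 2.93% lowered in both. CHAC1, which degrades glutathione and is itself an ATF4 target, was at 5.14 and 6.80 RPKM without AIL and at 0.29 and 0.45 RPKM with it. The median of the 15 genes was -0.43 in empty vector cells and -0.38 in AR1-651 cells, against -0.02 and 0.13 for all genes.

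Of the 11 synthetases commonly listed as ATF4 targets, 5 were higher and 6 lower with AIL in empty vector cells, and 6 were higher and 5 lower in AR1-651 cells, with medians of -0.14 and 0.00. None reached 2-fold upward in either background, where 9.53% and 14.9% of all genes did. GARS1 was lowered in both and AARS1 in AR1-651 cells, where 9.03% and 5.74% of all genes were lowered. The 7 cytosolic genes with the response element core in the promoter had a median change of -0.71 with AIL in empty vector cells (2 higher, 5 lower) and -0.41 in AR1-651 cells (2 higher, 5 lower). For the 9 cytosolic genes whose promoter window lacked the core, the medians were 0.47 (7 higher, 2 lower) and 0.20 (8 higher, 1 lower). Transcript length moved with this split, with a median of 2905 nt for holders and 2213 nt for the others. After the adjustment the medians were -0.67 and -0.62 for holders and 0.37 and 0.05 for the others. With median-ratio scaling 4 of these 9 others were higher in AR1-651 cells. YARS2, the only mitochondrial holder, was higher in both backgrounds.

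**Figure D3:**
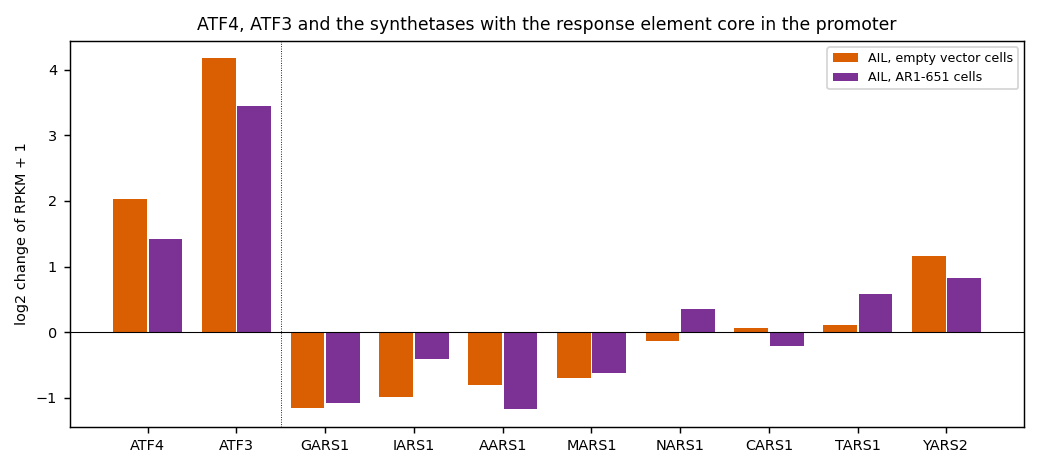
Log2 change with AIL (y axis) of ATF4, ATF3 and the 8 synthetases with the response element core in the promoter window, in empty vector cells (orange) and AR1-651 cells (purple), each bar 1 library against 1 library. ATF4 and ATF3 rise in both, while GARS1, IARS1, AARS1 and MARS1 are below 0 in both and YARS2 is above 0 in both.

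Other motif cores were searched in the same windows. The E-box CACGTG, read by MYC and related factors, was found in 4 of 30 members (CARS2, EARS2, IARS1 and MARS2) and in 8.77% of all genes. The core of the NRF1 motif, GCGCA and GCGC with any base between them, on either strand, was in 6 of 30 (FARSB, IARS2, MARS2, PARS2, SARS1 and TARS1) and in 6.98% of all genes. NRF1 is a regulator of nuclear genes for mitochondrial function. With AIL, the 6 NRF1 holders had medians of 0.20 and 0.29 in the 2 backgrounds and the 4 E-box holders 0.03 and -0.38. Members whose window lacked the NRF1 core had 0.20 and 0.17, and those without the E-box 0.21 and 0.19. After adjustment for transcript length and GC content the medians were 0.09 and 0.04 for NRF1 holders and 0.06 and -0.47 for E-box holders.

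AR1-651 without AIL lowered VARS1 and VARS2, the cytosolic and mitochondrial valyl enzymes, and raised no member. Among all genes, 4.01% were raised and 11.7% lowered. VARS1 went from 40.4 to 18.1 RPKM (log2 change -1.12) and VARS2 from 21.4 to 9.61 RPKM (-1.08). With AIL present VARS1 again was lowered, from 28.3 to 13.4 RPKM (-1.02), the only member past 2-fold there, where 1.46% of all genes were raised and 3.56% lowered. Of all genes, 1.51% were lowered and 0.273% raised without AIL and with it. VARS2 was lower by 0.91, at 12.8 and 6.35 RPKM. Both AR1-651 libraries lay below both empty vector libraries for each gene, as they did for 5 members in all and 23.2% of all genes, the others being AARS2, PARS2 and SARS2. For 6 members, CARS1, CARS2, FARS2, HARS1, KARS1 and WARS1, they lay above both, as for 10% of all genes. These calls depended on the scale: with median-ratio scaling the changes without AIL were -0.86 and -0.83, and after the adjustment they were -0.39 and -0.52. With that scaling HARS1, CARS2, FARS2 and RARS2 passed 2-fold upward with AR1-651 without AIL and no member passed it downward, where 7.37% and 5.61% of all genes did.

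VARS1 and VARS2 share features that the choice of genes did not use. With a GC content of 62.6% and 60.2% they are among the most GC-rich transcripts of the members, whose median is 51.6%, and with 4312 and 3566 nt they are longer than the median of 2721.5 nt. SARS2 (61.6%) and FARSA (61.4%) lie between them in GC content, and changed by -0.56 and 0.34 with AR1-651 without AIL. The change with AR1-651 without AIL was lower in longer transcripts over the 35 members (Spearman rho -0.65) and over all genes (-0.41). Its rho with GC content was 0.09 over members and -0.04 over all genes. The change with AR1-651 in the presence of AIL was lower at higher GC content (-0.60 over members, -0.61 over all genes). Its rho with length was -0.33 over members and -0.08 over all genes. The part of length and GC content in the lower values of these genes was not tested beyond the adjusted values.

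The median change with AR1-651 without AIL was -0.24 for the cytosolic and -0.09 for the mitochondrial genes, against -0.30 for all genes. With median-ratio scaling these became 0.03, 0.14 and -0.08. With AIL present the medians were -0.01 and -0.10, against -0.03. The comparisons of AR1-651 without and with AIL also share no library, and 8 members were higher in both, 14 lower in both and 13 opposite, where 21.7% of all genes were higher and 41.3% lower in both. Of the 14 lower ones, 8 remained with median-ratio scaling and 9 after the adjustment. Of the 8 higher ones, 7 remained after the adjustment. The scaling divides the AR1-651 library by the smaller factor (0.876 against 1.055 without AIL, 1.021 against 1.062 with it). A gene higher with AR1-651 therefore stays higher under the scaling, so all 8 remained by construction. The 8 higher ones were CARS1, HARS1, KARS1, WARS1, CARS2, FARS2, HARS2 and RARS2. FARSB and FARS2 had opposite signs without AIL: FARSB went from 22.9 to 14.1 RPKM (-0.66) and FARS2, the single-chain mitochondrial enzyme, from 8.46 to 16.2 RPKM (0.87).

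With AR1-651 and AIL together, set against empty vector, 4 members were raised and 7 lowered, where 12.6% of all genes were raised and 15.8% lowered. The 4 were HARS1 (1.01), RARS1 (1.04), FARS2 (1.11) and RARS2 (1.48). The 7 were AARS1 (-1.23), GARS1 (-1.42), IARS1 (-1.28), MARS1 (-1.30), VARS1 (-1.52), AARS2 (-1.06) and VARS2 (-1.61). After the adjustment RARS1 (0.48), RARS2 (0.88), AARS1 (-0.84), VARS1 (-0.64), AARS2 (-0.34) and VARS2 (-0.91) were inside 2-fold, and FARSA (1.25) was past it. MARS1, which passed 2-fold in no comparison of a single factor, was lower in each of those, by 0.60 to 0.71. Over the comparisons of a single factor, 8 of 35 members (22.9%) passed 2-fold at least once, as did 38.9% of all genes, and 11 members stayed within 1.5-fold in all 4, as did 23.9% of all genes.

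HARS1 and HARS2, the histidyl enzymes, are neighbours transcribed in opposite directions. The stretch between their starts holds 84 bases and is shown because both genes had the same order of the lowest library and the highest. It is printed on the plus strand, with matches to the ETS core CCGGAAGT or its reverse complement ACTTCCGG in capitals, a search made after the letters had been seen.
HARS1-HARS2 (chr5:140691371-140691454): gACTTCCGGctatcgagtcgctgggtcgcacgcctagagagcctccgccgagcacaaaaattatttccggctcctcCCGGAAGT
There were 2 matches, 1 at each end, and 4.95% of all genes hold at least 1 in their promoter window. HARS1 was at 70.5, 123, 125 and 143 RPKM and HARS2 at 23.0, 37.7, 31.9 and 44.1 RPKM with empty vector, AIL alone, AR1-651 alone and both. Each was lowest with empty vector and highest with AR1-651 + AIL, as were FARS2, KARS1, RARS2 and WARS1. The ratio of HARS1 to HARS2 stayed between 3.07 and 3.91. The ratios of VARS1 to VARS2 (1.88 to 2.21) and of NARS1 to NARS2 (6.18 to 7.83) varied less in fold terms, and those of the other pairs more. Whether reads were counted by strand is not given in the sources used here, so reads from overlapping or antisense transcripts cannot be told apart.

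The changes of the members were also set against transcript length, from GENCODE. Over the 35 members the change with AIL in empty vector cells had a Spearman rho of -0.71 with length, against -0.15 over all genes. It remained at -0.65 after the adjustment. The 12 members with the shortest transcripts (1663 to 2328 nt) were all higher with AIL in empty vector cells, with a median of 0.58, whereas of the 12 with the longest (3238 to 5014 nt) 3 were higher and 9 lower, with a median of -0.42. Among all genes in the first length range 50.5% were higher, with a median of 0.01, and in the second 44.4%, with a median of -0.11. In AR1-651 cells 10 of the 12 shortest were higher with AIL and 2 lower, with a median of 0.22 (0.08 after the adjustment). Of the 12 longest 5 were higher there and 7 lower, with a median of -0.22. Among all genes in the first length range 54.8% were higher in AR1-651 cells, with a median of 0.09, and in the second 61.1%, with a median of 0.21. The rho with length there was -0.27, and that with GC content -0.56, against 0.16 and -0.41 over all genes. After the adjustment the rho with length over members there was -0.39. These splits were made after the values had been seen.

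**Figure D4:**
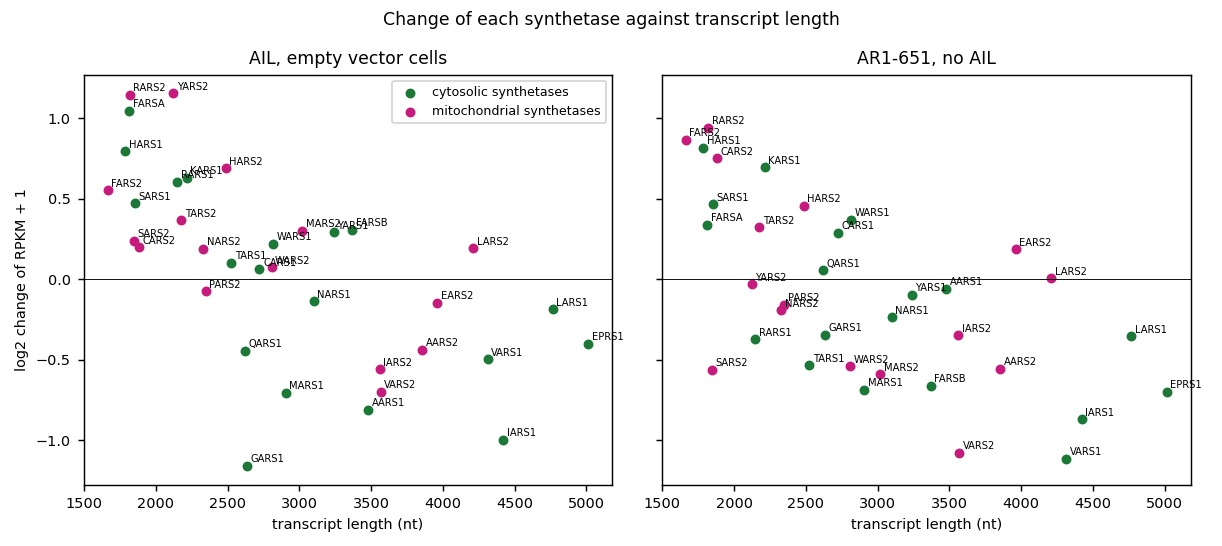
Log2 change of each synthetase (y axis) against transcript length in nt (x axis), for AIL in empty vector cells (left) and AR1-651 without AIL (right), with cytosolic genes in green and mitochondrial genes in magenta. Short transcripts lie mostly above 0 and long ones mostly below, and GARS1 lies far below 0 with AIL at 2634 nt.

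**Figure D5:**
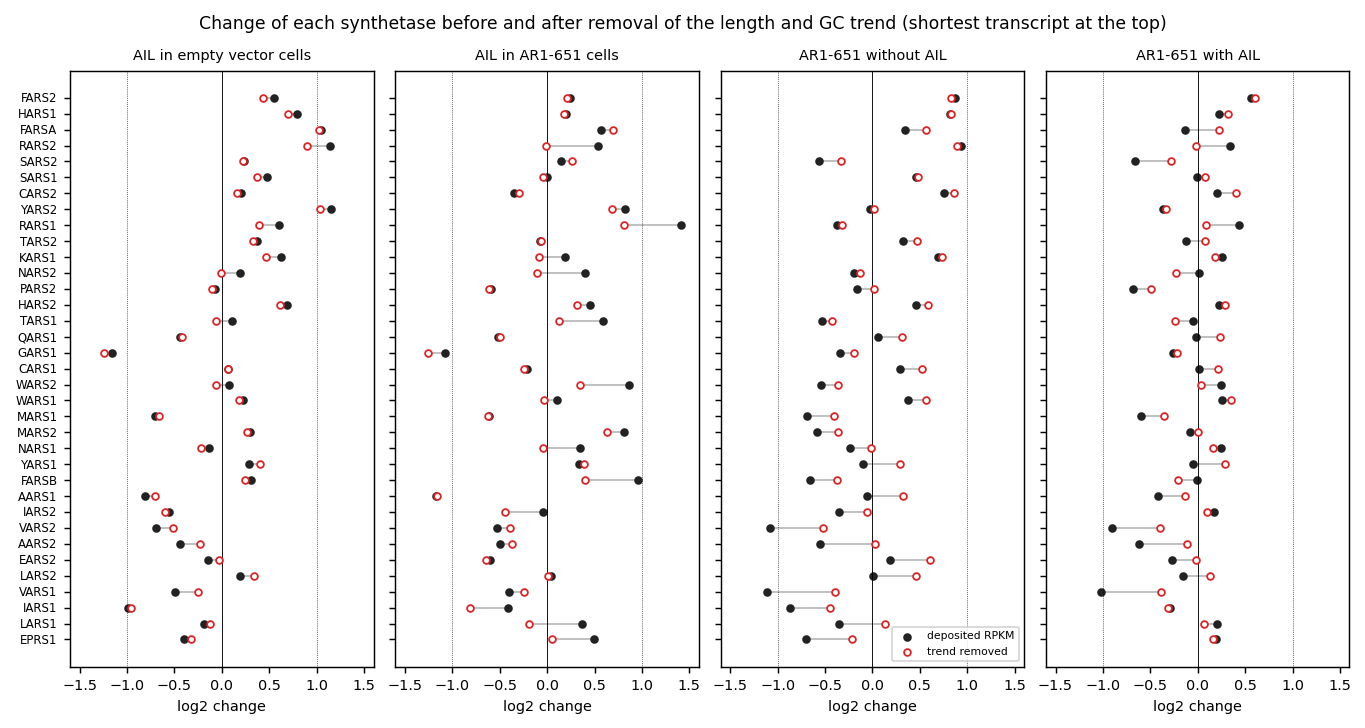
Log2 change (x axis) of the 35 synthetases in the 4 comparisons of a single factor, from RPKM as deposited (black) and after the adjustment for transcript length and GC content (red), with dotted lines at 2-fold. VARS1 in both AR1-651 panels and VARS2 in the panel without AIL move inside 2-fold, while GARS1 stays past it in both AIL panels.

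By catalytic class, the 16 class II enzymes had a median change of 0.27 with AIL in empty vector cells (11 higher) and the 19 class I enzymes 0.06 (10 higher). Of all 14626 genes 7069 were higher in that comparison, with a median of -0.02. In AR1-651 cells the medians were 0.19 and 0.04, and -0.03 and -0.17 with median-ratio scaling. Both classes hold genes lower with AIL in both backgrounds, 4 in class II (25%) and 7 in class I (36.8%), where 32.2% of all genes were lower in both.

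The 7 members that sit in the multisynthetase complex did not share a direction. With AIL in empty vector cells KARS1 and RARS1 were higher and the other 5 lower, with a median of -0.40, and in AR1-651 cells 4 were higher and 3 lower, with a median of 0.19 (-0.03 with median-ratio scaling). KARS1, the lysyl enzyme, stood at 101 RPKM with empty vector, 156 with AIL alone, 164 with AR1-651 alone and 186 with both. The 3 scaffold genes, named after their values were seen, were higher with AIL in RPKM as deposited. AIMP1 changed by 0.39 in empty vector cells and 0.91 in AR1-651 cells, AIMP2 by 0.51 and 0.79, and EEF1E1 by 1.26 and 0.41. In AR1-651 cells the adjusted values were 0.04 for AIMP1, 0.79 for AIMP2 and -0.11 for EEF1E1, so the direction of EEF1E1 was not kept there.

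Among 13 genes that assist charging (the scaffold genes, the mitochondrial amidotransferase subunits, the methionyl-tRNA formyltransferase, the tRNA exporter and others), 9 were higher with AIL in both backgrounds and 1 lower in both. Their medians were 0.51 and 0.41 (0.50 and 0.19 with median-ratio scaling), with 3 raised in empty vector cells, 2 raised in AR1-651 cells and none lowered. Among all genes 38% were higher in both backgrounds, and 9.53% and 14.9% were raised. After the adjustment the medians were 0.40 and 0.02, and XPOT, the tRNA exporter, stood at -1.03 in AR1-651 cells. PSTK, the kinase that prepares selenocysteinyl-tRNA, was raised in both. It stood at 2.97 and 6.08 RPKM without AIL and at 15.6 and 23.1 RPKM with it (2.07 and 1.77).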

How the data were processed

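RNA from LNCaP cells was sequenced by the authors on the Illumina HiSeq2000 and deposited as RPKM per gene, rounded to 2 decimals, 1 table per condition. The labels name both a ribosomal RNA removal kit and oligo(dT) enrichment. The submitters' processing notes name BWA 0.7.10-r789 and hg19. The counting tool, its strand setting and the annotation release are not given in the sources used here. RPKM holds no depth, so no interval is given.

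Changes were differences of log2(RPKM + 1) over the 14626 genes whose highest RPKM was 1 or more, called at 2-fold. With 1 library per condition no test was made. Symbols came from a RefSeq table (19703 genes), and GENCODE release 29 gave length and GC content for 14005 genes kept, all 35 members among them. The adjustment took out a polynomial of degree 3 fitted over all genes on the ranks of length and of GC content. Promoters were those of RefSeq.

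Full values were given, by rule, for members past 2-fold with a single factor, the highest and lowest of each list, and pairs parting by at least 0.5 each, and context genes were named where past 2-fold with AIL in both backgrounds. HARS1, HARS2, KARS1, EPRS1, EEF1E1, AIMP1, AIMP2 and XPOT were added after their values were seen. The members and lists were chosen with earlier results of these data known. Alternatives were median-ratio scaling, a pseudocount of 0.1, no filter or one at RPKM 5, the adjustment, and a 1.5-fold threshold. The calculations were tested on simulated data, in Python 3.11.15 with NumPy 2.4.6, pandas 2.3.3, SciPy 1.17.1 and Matplotlib 3.10.9.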

Additional observations from a re-analysis of the deposited data

Results flagged for a closer look

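For 6 members the change with AIL had opposite signs in the 2 backgrounds, which is why they are listed. With 1 library per condition the difference was not tested. As the change in AR1-651 cells minus that in empty vector cells, on the log2(RPKM + 1) scale, it was 0.89 for EPRS1, 0.56 for LARS1 and 0.48 for NARS1, all lower with AIL in empty vector cells and higher in AR1-651 cells. It was -0.55 for CARS2, -0.44 for TARS2 and -0.28 for CARS1, which were higher in empty vector cells and lower in AR1-651 cells. After adjustment for transcript length and GC content LARS1 (-0.13 and -0.19 in empty vector and AR1-651 cells) and NARS1 (-0.22 and -0.04) no longer had opposite signs, and EPRS1 stood at -0.33 and 0.05. For TARS2 the libraries were at 41.6 and 54.0 RPKM without and with AIL in empty vector cells, and at 52.3 and 49.6 RPKM in AR1-651 cells.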

How the results depend on the processing

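No paired analysis was possible because each condition has 1 library. With a pseudocount of 0.1, members past 2-fold were 5 in place of 3 for AIL in AR1-651 cells and 2 in place of 1 for AR1-651 with AIL. Median-ratio scaling gave 4 in place of 2 for AR1-651 without AIL and 0 in place of 1 with AIL. It moved the cytosolic and mitochondrial medians to -0.032 and -0.11 for AIL in AR1-651 cells and to 0.029 and 0.14 for AR1-651 without AIL, and the median over members of the difference between the AIL changes from -0.08 to -0.28. The adjustment for length and GC content gave 3 in place of 4 for AIL in empty vector cells and 2 in place of 3 in AR1-651 cells. For AR1-651 it gave 0 without AIL and 0 with AIL, and for both together 6 in place of 11. Of 14005 genes adjusted, 1287 passed 2-fold upward and 1177 downward for AIL in empty vector cells, and 1159 and 1053 in AR1-651 cells. For AR1-651 these gene counts were 659 and 530 without AIL and 166 and 190 with AIL, and for both together 1573 and 1460. The cytosolic median became -0.064 for AIL in empty vector cells, -0.040 in AR1-651 cells, 0.13 for AR1-651 without AIL and -0.056 for both together, and the mitochondrial one -0.040 for AIL in AR1-651 cells and 0.019 for AR1-651 without AIL. At a 1.5-fold threshold 12, 11, 12 and 6 members passed in the 4 comparisons of a single factor, AIL first. Within 1.5-fold in all 4 were 11 members and 23.9% of all genes. Shares of all genes in each comparison at 1.5-fold, or with the pseudocount of 0.1, are not given here. Those member counts therefore cannot be called high or low. None of the 21 single-gene values of at least 2-fold changed sign with the adjustment. The filter and the pseudocount cannot change a sign, and the scaling factors are too close to each other to reverse a 2-fold change. For the values that moved, the cause was not tested. Counting error cannot be stated without depth, and low genes such as PARS2 and WARS2 have the lowest RPKM.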
